A study of Homo sapiens with 6 samples.

Results

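Cells place, copy, read and remove a methyl group on the cytosine of CpG pairs, and 10 genes of that machinery were followed here in HEK293T cells given valproic acid (VPA). They were chosen by name from the 47470 genes listed in the count files: the maintenance writer DNMT1 with its partners UHRF1 and UHRF2, the de novo writers DNMT3A and DNMT3B, the erasers TET1, TET2, TET3 and TDG, and the reader MBD2. HEK293T is an established line of human embryonic kidney origin that carries the SV40 large T antigen. It expressed genes known from this line, such as PAX2, a kidney transcription factor, and NEFL, a neurofilament subunit. The 3 untreated libraries came from wild-type cells given nothing, and the 3 VPA-treated libraries from the same line kept for 1 day in medium holding VPA at 1 mM. The drug is an inhibitor of class I and IIa histone deacetylases. Messenger RNA was sequenced from whole cultures, so fewer cells of a kind and less RNA per cell cannot be told apart. The labels do not say whether the 3 libraries of a group came from separate cultures, and p-values measure only the spread between them, which may be technical.

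DNMT1 copies methylation onto the new strand after replication, and UHRF1 brings it to hemimethylated CpG pairs, whereas DNMT3A and DNMT3B methylate CpG pairs that had none. The TET enzymes oxidize 5-methylcytosine, and TDG cuts out the more oxidized bases so that base excision repair can put back an unmodified cytosine. MBD2 binds methylated CpG pairs and recruits the NuRD complex, which holds histone deacetylases, the enzymes that VPA inhibits.

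With TMM scaling the de novo writers were higher and DNMT1 and UHRF1 lower, while UHRF2 did not pass. DNMT3B rose 1.32-fold and DNMT3A 1.18-fold, while DNMT1 fell by 15.5% and UHRF1 fell by 13.9%. DNMT1 lost its call when libraries were scaled to ribosomal protein genes, and UHRF1 with that scaling and with library totals. Among the erasers TET1 rose 1.13-fold, TDG fell by 25.9% and TET3 fell by 14.4%. TET3 lost its call with library totals and under the ribosomal protein scaling. Of the 10 genes, all of which passed the filter on low counts, 3 were up-regulated and 4 down-regulated at an adjusted p under 0.05 (edgeR quasi-likelihood test, Benjamini-Hochberg over 15298 tested genes), and 3 did not pass. Across all tested genes 32.9% passed in the upward direction and 30.0% in the downward direction, so the share of the 10 genes that passed was near the background. When the log2 fold change also had to reach 1 in either direction, 12.0% of tested genes were up-regulated and 0.503% down-regulated, and none of the 10 was: their log2 fold changes ran from -0.43 to 0.40 with a median of -0.10, against 0.0058 for all tested genes. All members and lists below were measured in the same 6 libraries, and their values are normalised read counts, that is, counts scaled by TMM to the mean library size.

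**Figure D1:**
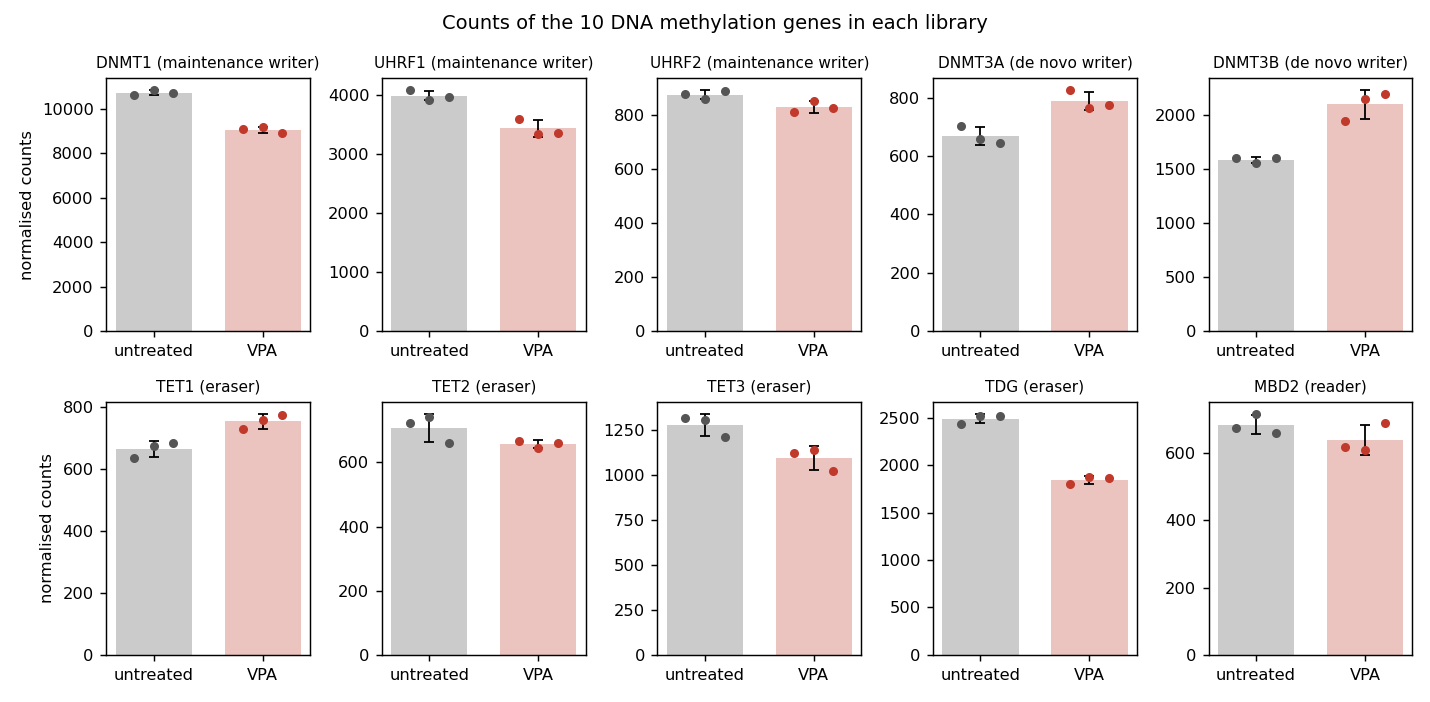
Normalised read counts (y axis, from 0, a scale of its own in each panel) of the 10 genes in 3 untreated (grey) and 3 VPA-treated (red) libraries. Points are libraries, bars are means and error bars are SD. DNMT3B, DNMT3A and TET1 sit higher in all 3 VPA-treated libraries, and DNMT1, UHRF1, UHRF2, TET3 and TDG sit lower, on the TMM scale; under the ribosomal protein scaling only TDG of these 5 stays lower.

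The maintenance writers DNMT1 and UHRF1 had the highest levels of the 10 genes per kilobase, and were lower and passed with TMM. DNMT1 lost that call under the ribosomal protein scaling, and UHRF1 lost it there and with library totals. DNMT1 had 10628, 10820 and 10727 normalised counts untreated and 9070, 9190 and 8922 with VPA. All 3 untreated libraries lay above all 3 VPA-treated libraries. The means were 10725 ± 95.9 and 9061 ± 134 (SD, n = 3), a log2 fold change of -0.24 (SE 0.039, 95% interval -0.32 to -0.16, edgeR adjusted p = 1.20e-05). UHRF1 had 4076, 3922 and 3967 normalised counts untreated and 3595, 3341 and 3362 with VPA, and again the groups did not overlap. Its mean went from 3988 ± 79.1 to 3433 ± 141 (SD, n = 3), a log2 fold change of -0.22 (SE 0.041, edgeR adjusted p = 0.000102). Within the range of all genes these were moderate changes, since 20.7% of tested genes had a lower log2 fold change than DNMT1 and 23.9% a lower one than UHRF1. Without any scaling between libraries, DNMT1 counts per UHRF1 count were between 2.61 and 2.76 untreated and were 2.52, 2.75 and 2.65 with VPA, which overlapped (exact permutation p = 0.6, two-sided, adjusted over 6 ratios p = 0.6).

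UHRF2, the paralog of UHRF1 that does not replace it in maintenance, had 878, 859 and 890 normalised counts untreated and 811, 853 and 825 with VPA. The VPA-treated libraries were lower, the nearest pair being 859 and 853, and the difference did not pass (log2 fold change -0.08, SE 0.051, 95% interval -0.18 to 0.03, edgeR adjusted p = 0.194). The ratio of UHRF1 to UHRF2 counts was 4.64, 4.56 and 4.46 untreated and 4.43, 3.91 and 4.07 with VPA. These ranges were 4.46 to 4.64 and 3.91 to 4.43, a 0.908-fold change with an exact permutation p of 0.1, the smallest that 3 against 3 libraries allow, and 0.15 after adjustment over the 6 ratios.

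Both de novo writers were up-regulated, DNMT3B with the larger log2 fold change. DNMT3B had 1604, 1557 and 1603 normalised counts untreated and 1952, 2156 and 2193 with VPA. No VPA-treated library came near the untreated range, and the first was the lowest of the 3. The means were 1588 ± 27.0 and 2100 ± 130 (SD, n = 3), a log2 fold change of 0.40 (SE 0.048, 95% interval 0.30 to 0.50, edgeR adjusted p = 2.51e-07). DNMT3A had 703, 657 and 645 normalised counts untreated and 825, 766 and 775 with VPA. The groups did not overlap, and the first library was the highest of its group in each. Its mean went from 668 ± 30.7 to 788 ± 32.0 (SD, n = 3), a log2 fold change of 0.24 (SE 0.057, 95% interval 0.12 to 0.36, edgeR adjusted p = 0.000984). The DNMT3A to DNMT3B ratio was 0.438, 0.422 and 0.402 untreated and 0.423, 0.355 and 0.353 with VPA. These values overlapped, so a difference in response between the de novo writers was not detectable with 3 libraries a group (0.893-fold, exact permutation p = 0.3, adjusted p = 0.36).

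The TET genes split. TET1 had 637, 673 and 684 normalised counts untreated and 728, 757 and 775 with VPA, with no overlap between the groups. The means were 665 ± 24.9 and 753 ± 23.4 (SD, n = 3), a log2 fold change of 0.18 (SE 0.056, edgeR adjusted p = 0.00754). This call was lost with DESeq2 (log2 fold change 0.16, adjusted p = 0.0852). TET3 had 1317, 1306 and 1208 normalised counts untreated and 1123, 1139 and 1019 with VPA, and all VPA-treated libraries were below all untreated ones. Its mean went from 1277 ± 59.9 to 1093 ± 65.2 (SD, n = 3), a log2 fold change of -0.22 (SE 0.053, edgeR adjusted p = 0.000981). TET2 had 724, 740 and 659 normalised counts untreated and 668, 645 and 660 with VPA, so the groups overlapped through the third untreated library. It did not pass (log2 fold change -0.11, SE 0.058, 95% interval -0.23 to 0.01, edgeR adjusted p = 0.118). Without that library its log2 fold change was -0.16 and passed (adjusted p = 0.0281). Leaving out any other library gave no call (edgeR adjusted p from 0.126 to 0.31).

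Ratios within a library need no scaling, but they come from the same counts, so their order of the TET genes repeats that of the fold changes. TET1 counts per TET3 count were 0.483, 0.515 and 0.566 untreated and 0.648, 0.665 and 0.760 with VPA. Every VPA-treated value was higher than every untreated value, by 1.32-fold on average. TET1 counts per TET2 count were 0.880, 0.909 and 1.04 untreated and 1.09, 1.17 and 1.17 with VPA, 1.22-fold higher and again with no overlap. TET2 counts per TET3 count were 0.550, 0.567 and 0.546 untreated and 0.595, 0.567 and 0.648 with VPA, so the highest untreated value and the lowest VPA-treated value were the same to 3 decimals. All 3 TET ratios had an exact permutation p of 0.1, the smallest this design gives, and 0.15 after adjustment, so none passed.

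**Figure D2:**
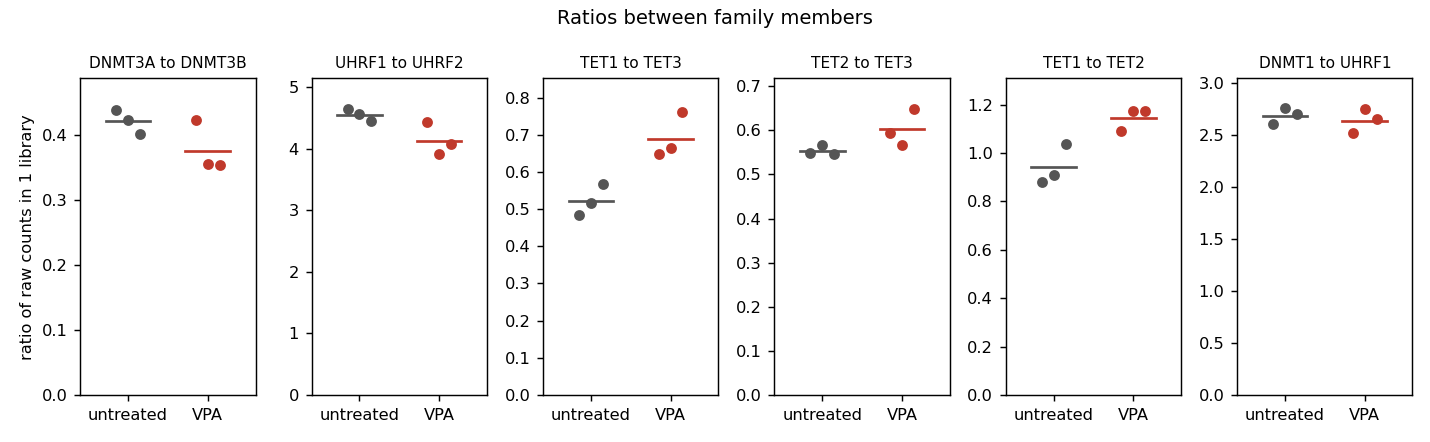
Ratios of raw counts of a pair of genes in the same library (y axis, no unit, from 0) for 6 pairs, with 3 untreated (grey) and 3 VPA-treated (red) libraries as points and group means as lines. TET1 to TET3 goes from 0.483 to 0.566 untreated to between 0.648 and 0.760 with VPA, while DNMT1 to UHRF1 overlaps between the groups.

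TDG, the glycosylase of the active demethylation route, had the largest decrease of the 10 genes. It had 2433, 2515 and 2519 normalised counts untreated and 1801, 1872 and 1862 with VPA. The 2 groups lay far apart relative to the spread within each, with means of 2489 ± 48.8 and 1845 ± 38.6 (SD, n = 3). The log2 fold change was -0.43 (SE 0.042, 95% interval -0.52 to -0.35, edgeR adjusted p = 1.15e-08), and 6.53% of tested genes had a lower one. MBD2, the reader, had 675, 716 and 661 normalised counts untreated and 618, 611 and 689 with VPA. The third VPA-treated library lay within the untreated range and the others below it. The difference did not pass (log2 fold change -0.10, SE 0.061, 95% interval -0.22 to 0.03, edgeR adjusted p = 0.170). Without that library it was -0.16 and passed (adjusted p = 0.0492). Leaving out any other library gave no call for MBD2 (edgeR adjusted p from 0.11 to 0.435).

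**Figure D3:**
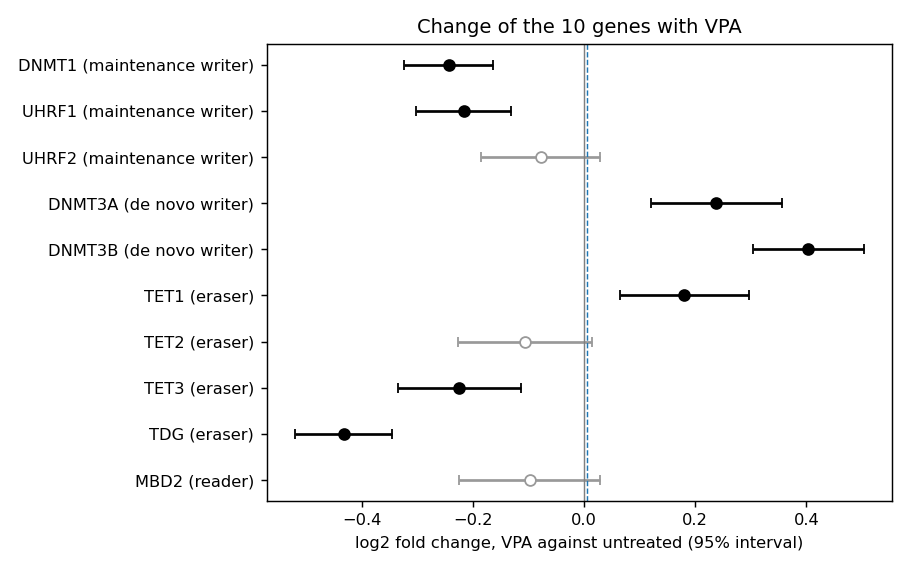
Log2 fold change of VPA-treated against untreated libraries (x axis) for each of the 10 genes, with its 95% interval from the edgeR fit. Filled points passed an adjusted p under 0.05, open points did not, and the dashed line is the median of all tested genes, 0.0058. DNMT3B (0.40), DNMT3A (0.24) and TET1 (0.18) lie to the right, and DNMT1 (-0.24), UHRF1 (-0.22), TET3 (-0.22) and TDG (-0.43) to the left, of which DNMT1, UHRF1 and TET3 cross 0 under the ribosomal protein scaling.

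How far a gene lies from 0 depended on how the libraries were scaled. A scaling shifts all genes by nearly the same amount. Their order and their distance from the median are therefore fixed beforehand and are no sign of stability. Over all genes the median was 0.0058 with TMM on the log2 scale, -0.0188 with DESeq2 size factors, 0.0711 with the upper quartile, 0.137 with library totals and 0.279 when 74 ribosomal protein genes were held level. Calls across all genes moved with it, from 5037 higher and 4591 lower with TMM to 5810 and 3413 with the upper quartile, 6713 and 2372 with library totals, and 9332 and 838 with the ribosomal protein scaling. Among the 10 genes, 3 were higher and 4 lower with TMM, 3 and 2 with library totals, and 6 and 1 with ribosomal proteins. DNMT3B, DNMT3A and TET1 were higher and TDG was lower, each past the threshold, under all 5 scalings fitted with edgeR. From TMM to the ribosomal protein scaling the log2 fold change went from 0.40 to 0.68 for DNMT3B, from 0.24 to 0.51 for DNMT3A, from 0.18 to 0.45 for TET1 and from -0.43 to -0.16 for TDG, so their sizes depended on the scaling. DNMT1 went from -0.24 with TMM to -0.11 with library totals (adjusted p = 0.0118) and 0.03 with ribosomal proteins (adjusted p = 0.518). Relative to the median of all genes its change was -0.25 under each of these 3 scalings, as the shared shift requires. UHRF1 (-0.22) and TET3 (-0.23) lay below that median by the same arithmetic, and lost their calls with library totals, at adjusted p = 0.0811 and 0.149.

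**Figure D4:**
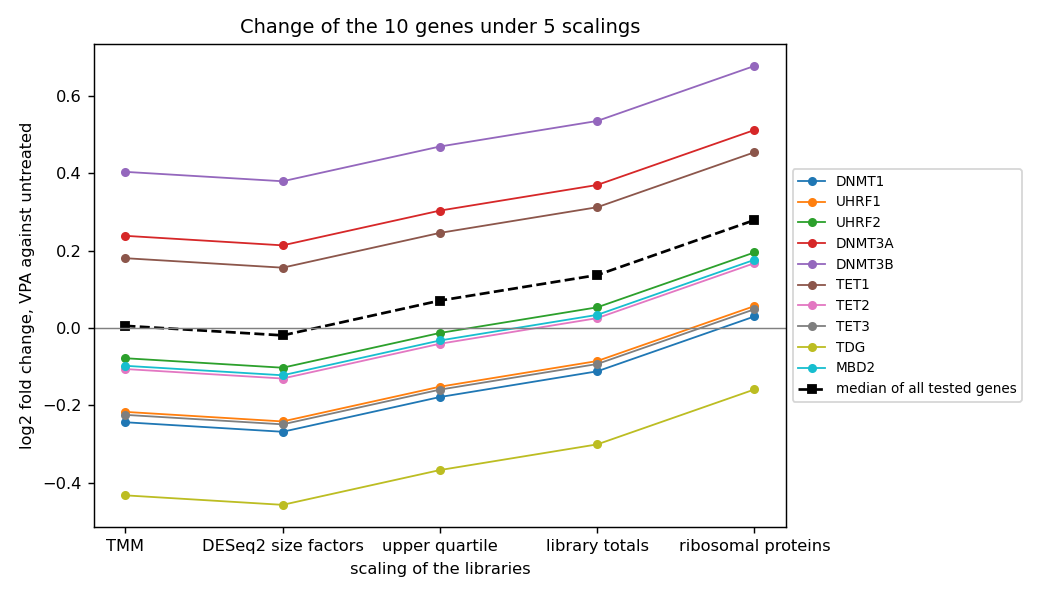
Log2 fold change with VPA (y axis) of the 10 genes under 5 scalings of the libraries (x axis), each gene a line, with the median of all tested genes dashed in black. The lines run in parallel with that median because a scaling shifts all genes alike. DNMT3B, DNMT3A and TET1 stay above 0 and TDG below 0 under all 5, whereas DNMT1, UHRF1, UHRF2, TET2, TET3 and MBD2 cross 0 by the last.

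Levels were compared between genes as normalised counts per kilobase of the longest GENCODE transcript. In untreated cells the order was DNMT1 at 1499 ± 13.4, UHRF1 at 926 ± 18.4, TDG at 782 ± 15.3, DNMT3B at 363 ± 6.19, UHRF2 at 235 ± 4.17, MBD2 at 135 ± 5.61 and TET3 at 106 ± 4.97 per kilobase (SD, n = 3). DNMT3A at 70.3, TET2 at 69.6 and TET1 at 69.2 came last, and neighbours among these 3 overlapped between libraries. With VPA the first 8 places did not change, TET3 at 90.7 and DNMT3A at 83.0 now overlapped, and TET1 at 78.4 ± 2.43 stood above TET2 at 64.7 ± 1.12 with no overlap. DNMT3B, at 481 ± 29.7 per kilobase with VPA, remained well below DNMT1 at 1266. The order of genes rests on the length used: over the union of exons UHRF1 (775) came before DNMT1 (697) in untreated cells. Over that union TET1 (69.2) also stood above TET2 (43.0) with no overlap in untreated cells, so their change of places depends on the length.

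The genes lie on 8 chromosomes (RefSeq, GRCh38.p14). DNMT1 (chr19:10133346-10194953, minus strand) and UHRF1 (chr19:4903080-4962154, plus strand) share chromosome 19, and DNMT3A (chr2:25227874-25342590, minus strand) and TET3 (chr2:73983631-74135498, plus strand) share chromosome 2. DNMT3B is at chr20:32762385-32809356, TDG at chr12:103965872-103988874, TET1 at chr10:68560337-68694487, TET2 at chr4:105145875-105279803 and UHRF2 at chr9:6413199-6507054, all on the plus strand, and MBD2 at chr18:54151606-54224669 on the minus strand. TET3 overlaps BOLA3, an iron-sulfur cluster assembly gene on the opposite strand, which itself had a log2 fold change of -0.21 (SE 0.085, edgeR adjusted p = 0.0380) with groups that overlapped, 709 ± 60.2 against 611 ± 83.0 normalised counts (SD, n = 3). The strand setting of the counting is not given in the sources used here, so the share of TET3 counts that belongs to BOLA3, or the reverse, was not tested. DNMT3A, UHRF2, TET1 and TDG each have a processed pseudogene in GENCODE, and their counts are less certain for that reason.

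The promoters of these genes can themselves carry CpG methylation, so the 250 bases before the start of the canonical transcript were read from RefSeq (GRCh38.p14) for 9 of the 10 genes. DNMT3B was not read. A pair that rose (DNMT3A, TET1) and a pair that fell (UHRF1, TDG; UHRF1 not under the ribosomal protein scaling) are shown 5′ to 3′ with each CG pair in capitals, since the number of these pairs is what sets the windows apart: DNMT3A at chr2:25341926-25342175 on the minus strand, TET1 at chr10:68560087-68560336 on the plus strand, UHRF1 at chr19:4909251-4909500 on the plus strand and TDG at chr12:103965622-103965871 on the plus strand.
DNMT3A: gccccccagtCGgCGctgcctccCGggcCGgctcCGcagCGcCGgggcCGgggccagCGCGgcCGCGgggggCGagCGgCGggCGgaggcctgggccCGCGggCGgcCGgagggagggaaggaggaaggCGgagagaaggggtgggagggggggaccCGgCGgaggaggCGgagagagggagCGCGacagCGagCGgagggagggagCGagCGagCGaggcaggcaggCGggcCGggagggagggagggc
TET1: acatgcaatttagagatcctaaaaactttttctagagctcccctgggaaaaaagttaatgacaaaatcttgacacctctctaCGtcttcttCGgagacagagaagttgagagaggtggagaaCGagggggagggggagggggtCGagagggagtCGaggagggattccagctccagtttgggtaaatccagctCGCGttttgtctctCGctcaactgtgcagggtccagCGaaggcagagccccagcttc
UHRF1: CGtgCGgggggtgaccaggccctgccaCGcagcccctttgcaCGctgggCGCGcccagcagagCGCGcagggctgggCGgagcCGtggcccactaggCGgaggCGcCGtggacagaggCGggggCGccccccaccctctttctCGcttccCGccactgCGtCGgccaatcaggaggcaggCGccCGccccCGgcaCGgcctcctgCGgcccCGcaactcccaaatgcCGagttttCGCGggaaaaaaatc
TDG: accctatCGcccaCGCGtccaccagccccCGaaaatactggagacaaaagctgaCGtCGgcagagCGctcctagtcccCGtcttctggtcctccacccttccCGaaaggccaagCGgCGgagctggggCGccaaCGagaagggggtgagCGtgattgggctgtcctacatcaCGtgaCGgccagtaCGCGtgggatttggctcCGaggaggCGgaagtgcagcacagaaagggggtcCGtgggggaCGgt

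The DNMT3A window holds 33 CG pairs, and 93.2% of 35114 promoter windows of this length hold as many or fewer. TET1 holds 9, the fewest of the 9 genes (47.8% hold as many or fewer, and the median window holds 11). UHRF1 holds 28 and TDG 22, and the other 5 windows hold 21 in DNMT1 and in MBD2, 23 in UHRF2, 34 in TET2 and 37 in TET3. Of the genes that rose, DNMT3A thus had a rich window and TET1 a poor one, and DNMT3B was not read. These are the windows at the canonical start alone, where DNMT3A has 6 listed windows, TET1 3 and UHRF1 3. The motif TTTCCCGC, a form bound by E2F factors, was found on either strand in the UHRF1 window alone of the 9 and in 1.39% of all windows, and the form TTTGGCGC, held by 0.55% of all windows, in none. The GC box GGGCGG was present in 6 of 9 windows (42.6% of all), DNMT3A and UHRF1 among them, and CCAAT in 2 of 9, TDG and UHRF1 (32.0% of all). A match describes the letters only.

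Of the partners of the writers 8 were tested, with 5 lower, 1 higher and 2 that did not pass, where 30.0% of all tested genes were lower and 32.9% higher. Under the ribosomal protein scaling 4 were higher and 1 lower, where 91.8% of the calls over all genes were higher. Their median log2 fold change was -0.21. TRIM28, which KRAB zinc fingers use to bring silencing and DNA methylation to imprints and retroelements, went from 17846 ± 810 to 12108 ± 745 normalised counts (SD, n = 3; log2 fold change -0.56, SE 0.048, edgeR adjusted p = 1.51e-09). CDCA7, which activates the remodeller HELLS, had a log2 fold change of -0.35 (SE 0.043, edgeR adjusted p = 4.75e-07), and -0.07 without passing under the ribosomal protein scaling. HELLS itself was at 1828 ± 9.78 and 1836 ± 59.7 normalised counts (SD, n = 3) with a 95% interval of -0.08 to 0.10 for its log2 fold change. It was higher and passed with library totals (0.14, edgeR adjusted p = 0.0093) and under the ribosomal protein scaling (0.28, edgeR adjusted p = 9.22e-06). PCNA, the replication clamp that binds DNMT1, QSER1, which guards CpG-rich regions from methylation, and USP7, a deubiquitinase of UHRF1 and DNMT1, had log2 fold changes of -0.32, -0.26 and -0.16 and passed as well, but under the ribosomal protein scaling PCNA did not pass (-0.04) and QSER1 and USP7 turned positive. TRDMT1, a methyltransferase of transfer RNA despite its resemblance to the DNMT genes, was the 1 that rose, by 0.41 (SE 0.074, edgeR adjusted p = 6.01e-05). DNMT3L, the cofactor of the de novo enzymes in germ cells, had 1 count over the 6 libraries and ZFP57 had 2, and they were not tested.

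The list of eraser partners and base excision repair had 8 higher, 4 lower and 6 that did not pass of 18 tested (all genes: 32.9% higher, 30.0% lower), with a median of 0.04. It had 11 higher and 3 lower with library totals (all genes: 73.9% of calls higher). Under the ribosomal protein scaling it had 12 higher and 1 lower with a median of 0.32 (all genes: 91.8% of calls higher, median 0.279). With TMM all 4 lower genes, LIG3, APEX1, POLB and PARP1, belong to base excision repair, as do XRCC1 and SMUG1 of the 8 higher ones. LIG3, the ligase that seals nicks with XRCC1, had 3095, 3181 and 3187 normalised counts untreated and 1728, 1761 and 1725 with VPA. The groups lay far apart, and the log2 fold change was -0.86 (SE 0.041, edgeR adjusted p = 9.50e-14). APEX1, the abasic-site endonuclease that acts after TDG, had a log2 fold change of -0.29 (SE 0.039, edgeR adjusted p = 1.64e-06), and POLB (-0.26) and PARP1 (-0.32) passed with TMM too. Under the ribosomal protein scaling none of these 3 passed, at -0.01 for APEX1, 0.01 for POLB and -0.04 for PARP1, while LIG3 still did at -0.59. XRCC1 was 0.11 higher and passed narrowly (SE 0.045, edgeR adjusted p = 0.0472). IDH1 and IDH2 make the 2-oxoglutarate that TET enzymes need, and rose by 0.60 (SE 0.055, edgeR adjusted p = 8.66e-09) and 0.40 (SE 0.048, edgeR adjusted p = 3.13e-07) on the log2 scale. The remaining 5 that rose were CXXC4 and CXXC5, zinc finger proteins linked to TET2, GADD45B, GADD45G and the glycosylase SMUG1, with log2 fold changes of 0.51, 0.46, 0.48, 0.87 and 0.29. OGT, which binds TET proteins, was listed at 0 in every library, as were all 1437 genes of the X chromosome in the files, ZBTB33 and POLA1 included, so nothing can be read from these 3 genes.

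The list of other methyl-CpG readers was drawn from the MBD and ZBTB families. A place on it does not mean that a gene binds methylated CpG pairs. Of its 7 tested genes 4 were lower, 1 was higher and 2 did not pass (all genes: 30.0% lower, 32.9% higher). Under the ribosomal protein scaling 3 were higher and 1 lower (all genes: 91.8% of calls higher). MBD3, the NuRD subunit that takes the place of MBD2 and binds methylated DNA weakly, had 4931, 4328 and 4156 normalised counts untreated and 2790, 2535 and 2486 with VPA. The lowest untreated library was well above the highest VPA-treated library (log2 fold change -0.78, SE 0.060, edgeR adjusted p = 1.30e-08). MBD6 had a log2 fold change of -0.32 (SE 0.072, edgeR adjusted p = 0.000899), and the glycosylase MBD4 (-0.20) and MBD1 (-0.13) passed too. Under the ribosomal protein scaling MBD6 did not pass (-0.04), and MBD4 and MBD1 were positive. ZBTB4 was 0.15 higher with groups that overlapped (edgeR adjusted p = 0.0464).

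Of the methyl donor cycle, which makes S-adenosylmethionine and clears its product, 9 of 13 genes were tested, with 5 lower and 2 higher (all genes: 30.0% lower, 32.9% higher), and 1 lower and 5 higher under the ribosomal protein scaling (all genes: 91.8% of calls higher). MAT2A, the catalytic subunit of the synthetase outside the liver, went from 10357 ± 209 to 7489 ± 62.0 normalised counts (SD, n = 3; log2 fold change -0.47, SE 0.039, edgeR adjusted p = 9.78e-10). Its regulatory subunit MAT2B had a log2 fold change of -0.36 (SE 0.045, edgeR adjusted p = 4.77e-07), and -0.09 without passing under the ribosomal protein scaling. AHCY, MTRR and MTR also passed, at -0.24, -0.24 and -0.10, all 3 positive under the ribosomal protein scaling. MAT1A, the liver form, was up-regulated past both thresholds from 4.52 ± 2.15 to 23.7 ± 3.01 normalised counts (SD, n = 3; log2 fold change 2.36, SE 0.355, edgeR adjusted p = 6.17e-06), on 87 counts in all. Its untreated counts lay under the filter's minimum, so it was tested only through the group where it was high. AHCYL2 rose by 0.23 (SE 0.062, edgeR adjusted p = 0.00237).

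Of 23 germline genes that somatic cells silence through promoter methylation, 20 did not pass the filter on low counts, 7 of them at 0 in every library. The 3 that were tested were higher. TEX15, a protein of male meiosis and of piRNA-directed silencing, had 452, 433 and 473 normalised counts untreated and 890, 834 and 882 with VPA, so every VPA-treated library lay well above the untreated range (log2 fold change 0.94, SE 0.059, edgeR adjusted p = 8.68e-12). TDRD12, a piRNA factor, went from 12.9 ± 3.09 to 28.5 ± 5.20 normalised counts (SD, n = 3; log2 fold change 1.14, SE 0.266, edgeR adjusted p = 0.000843). STK31 went from 12.2 ± 1.11 to 20.8 ± 3.94 (SD, n = 3; log2 fold change 0.77, SE 0.279, edgeR adjusted p = 0.0213). Low genes had to be high enough in a group to be tested, and the other 20 were not, so these 3 do not speak for the list. The lowest untreated library of TDRD12 (9.32 normalised counts) lay under the filter's minimum, so this gene passed only through the group where it was high.

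**Figure D5:**
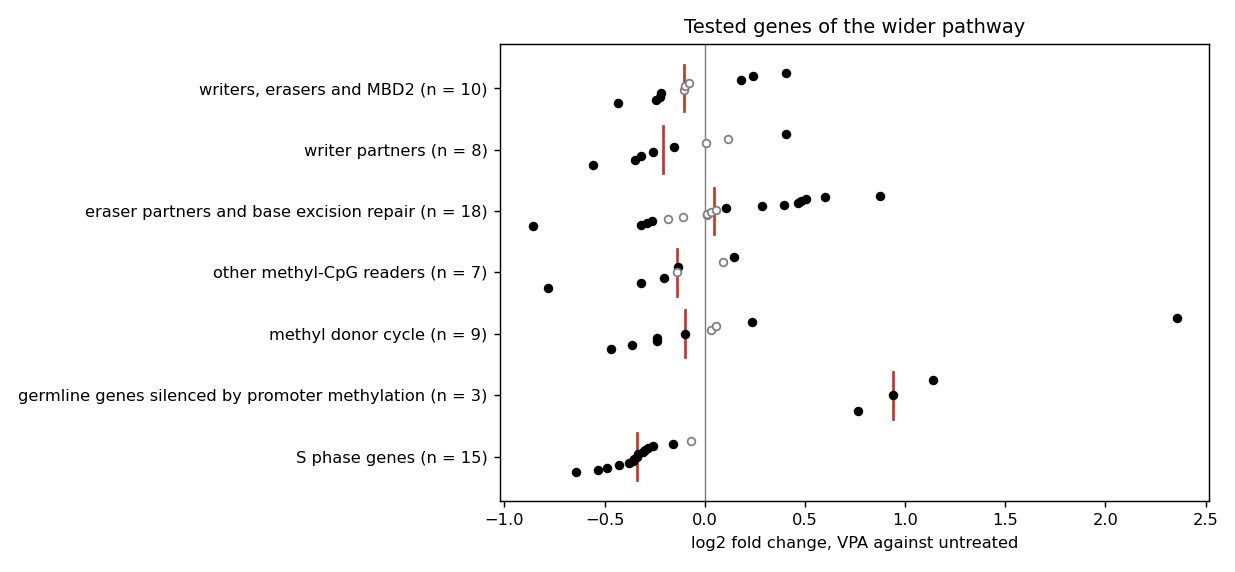
Log2 fold change with VPA (x axis, TMM scaling) of every tested gene of the 10 and of 6 lists, each point a gene, filled where it passed an adjusted p under 0.05 and open where it did not, with red lines at list medians. The S phase genes lie at or left of 0 with a median of -0.34, the writer partners have a median of -0.21, and the writers, erasers and MBD2 spread from -0.43 to 0.40. Under the ribosomal protein scaling the writer partners, other readers, methyl donor cycle and the 10 genes have medians above 0.

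DNMT1 and UHRF1 are known to vary with the cell cycle, and genes of S phase moved with them. Of 15 S phase genes tested 14 were lower and none was higher (all genes: 30.0% and 32.9%), with a median log2 fold change of -0.34, and 5 were lower and 2 higher under the ribosomal protein scaling (all genes: 91.8% of calls higher). Their summed level was 82173 to 86815 normalised counts in the untreated libraries and 65731 to 66263 with VPA. TYMS, the thymidylate synthase, had a log2 fold change of -0.53 (SE 0.046, edgeR adjusted p = 1.89e-09) and MCM7, of the replicative helicase, -0.49 (SE 0.043, edgeR adjusted p = 2.27e-09), while GINS1 at -0.07 did not pass. The part of S phase in the change of DNMT1, UHRF1 or TDG was not tested.

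The libraries were alike in depth, with 18622267 to 18828495 counts on genes and 20719 to 22425 genes with a count, and edgeR's common biological coefficient of variation was 3.83%. CDKN1A, a gene known to rise with deacetylase inhibitors, was higher by 0.66 on the log2 scale. Of the lineage genes, those that rose were PAX2 (2.26), NEFL (1.06), NEFM (0.87), LHX1 (0.79) and INA (0.37), and EYA1 (-0.68) and VIM (-0.27, positive under the ribosomal protein scaling) fell. Of 8 markers of blood, liver, endothelial and epithelial cells, 6 had any count and none passed the filter, KRT5 and HBG1 were at 0, and their sum was 0 to 2.10 normalised counts untreated and 11.5 to 12.4 with VPA. These sums are near 0 beside the counts of the 10 genes.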

How the data were processed

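Messenger RNA of 6 HEK293T libraries was analysed (3 untreated, 3 with 1 mM VPA for 1 day), grouped by their labels. The authors cleaned reads (SOAPnuke), placed them on hg38 by STAR (2.7.10b in the submitters' processing notes) and deposited raw counts per gene from htseq-count (HTSeq 2.0.1 in those notes). The annotation and strand setting are not given in the sources used here. Summary lines without a gene (11.8% to 12.7% of reads, those placed at several loci among them) were left out, which lowers genes with near-identical copies.

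The counts were fitted with edgeR 4.0.16 (R 4.3.3): TMM, filterByExpr at a minimum count of 10, robust quasi-likelihood, condition as the sole covariate, prior count 0.125, Benjamini-Hochberg adjustment over all 15298 genes. Calls needed an adjusted p under 0.05. The SE is the log2 fold change over the root of F. Ratios were compared by two-sided exact permutation. Replicates differed by more than sampling noise (chi-square per gene 1.62 to 4.80).

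Alternatives were DESeq2 1.42.0, limma 3.58.1 voom, 4 other scalings, other filters, an adjusted p of 0.01, a replicate block, leaving out each library and other transcript lengths. The canonical transcript and the change relative to the median of all genes were chosen after seeing the data.

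Named were the 10 genes, from each list those past a log2 fold change of 1 and the 2 smallest p-values in each direction, and, chosen after their values were seen, the other genes of counts of 5 or fewer, HELLS, GINS1, BOLA3, TDRD9 and MOV10L1. The 3 genes most like DNMT3B and TDG (smallest p in each direction) were also named. The 10 genes and all lists were chosen with earlier results of these data known. Lengths are from GENCODE 44. Some genes of the marker and reader lists are not reported here.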

Additional observations from a re-analysis of the deposited data

How the results depend on the processing

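Over 160 comparisons of the 10 log2 fold changes with the main fit, 146 kept direction and call, 3 kept direction but lost the call, 2 gained it and 9 changed direction. The adjusted p of 0.01, counted among them, is the main fit read at a stricter cut and could not change a direction. Those that changed direction did so with library totals (MBD2 0.034, TET2 0.026, UHRF2 0.054) or ribosomal proteins (DNMT1 0.030, MBD2 0.18, TET2 0.17, TET3 0.049, UHRF1 0.057, UHRF2 0.20), which put the median of all genes at 0.137 and 0.279. MBD2, TET2 and UHRF2 then passed in the upward direction with ribosomal proteins, so 6 of the 10 genes were higher and 1 lower there, and 2 were lower with library totals. In the other lists 15 genes were higher and 32 lower with TMM, 23 higher and 23 lower with library totals, and 29 higher and 9 lower with ribosomal proteins. Over all tested genes 52.3%, 73.9% and 91.8% of the calls were higher under these scalings. No gene of the 10 passed a log2 fold change of 1 under any setting. Leaving out each library gave 3 higher and 4 to 5 lower of the 10, with ranges of 0.37 to 0.45 for DNMT3B, 0.20 to 0.27 for DNMT3A, 0.14 to 0.20 for TET1 and -0.45 to -0.42 for TDG. The log2 difference of the DNMT1 to UHRF1 ratio, -0.026, ran from -0.056 to 0.0068, the last without VPA replicate 1, and its direction is not settled. The cause of these changes was not tested.

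With the replicate number as a block, 3 genes were higher and 4 lower, as without it. Same-numbered libraries deviated together at r of 0.139, 0.0214 and 0.0805 across 15298 genes, and others at -0.107 to 0.0308. The pairs numbered 1 and 3 thus lay above every pair of unlike number, while untreated replicate 2 correlated best with VPA replicate 3. The edgeR adjusted p of DNMT1 was 1.32e-10 with the block and 1.2e-05 without it. Whether same-numbered libraries share a culture or batch cannot be told from these values. For the ratios, an exact paired permutation test with the block cannot go below p = 0.25. With 3 libraries a group, smaller changes of UHRF2, TET2 and MBD2 within their intervals were not detectable.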

Other observations

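The genes most like DNMT3B and TDG over the 6 libraries were listed as a description, with no test, since any gene that separates the groups correlates with them. For DNMT3B these were STMP1 (Pearson r of log2 CPM 0.998, log2 fold change 0.15), LRRC8D (0.997, 0.18) and PRDM8 (0.996, 1.40), and 1527 genes reached an r of 0.95. For TDG they were IPO7 (1.000 to 3 decimals, log2 fold change -0.36), NOB1 (0.999, -0.42) and ARL6IP1 (0.999, -0.44), and 1773 genes reached it.

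Among germline genes under the filter, TDRD9 had 2.07, 1.05 and 0 normalised counts untreated and 5.75, 8.67 and 3.83 with VPA, and MOV10L1 had 1.04, 1.05 and 2.10 untreated and 6.71, 8.67 and 5.74 with VPA. These genes were chosen after their values were seen and were not tested.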
